A study of Caenorhabditis elegans with 11 samples.

Results

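Meiotic chromosome pairing and recombination in Caenorhabditis elegans were followed through 8 genes: him-3, syp-1, syp-2, him-8, spo-11, mre-11, rad-51 and him-14. They were taken by WormBase identifier from the 46904 genes listed in each of the deposited count tables, and all 8 passed the filter on low counts in both. The samples were isolated gonads of worms on the first day of adulthood, either wild type (strain N2) or carrying the deletion allele ok837 of cup-4 (strain RB950), a gene that acts in coelomocytes, the scavenger cells of the body cavity. Small RNA reads antisense to each gene were counted in 3 libraries of each genotype, and mRNA reads in 2 libraries of wild type (replicates 2 and 3) and 3 of cup-4. Replicates are biological per the series' design text, a replicate number is also a batch number, the mutant is 1 strain with 1 allele, and the number of gonads in a sample is not given in the sources used here.

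In the worm gonad, germ cells leave the mitotic zone, enter meiotic prophase and there pair, align and recombine their homologous chromosomes. HIM-3 builds the chromosome axis, SYP-1 and SYP-2 the central region of the synaptonemal complex that holds homologues together, and HIM-8 is a zinc-finger protein that binds the pairing centre of the X chromosome. SPO-11 cuts DNA to start recombination, MRE-11 is a nuclease needed to make and process these breaks, RAD-51 coats the ends and finds the homologous partner, and HIM-14, the worm MSH-4, is needed to turn intermediates into crossovers. Antisense small RNAs of the germline are made largely by RNA-dependent RNA polymerases on mRNA templates and are bound by Argonaute proteins, and many genes expressed in the germline have them.

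In the WBcel235 assembly, which is the ce11 build named in the submitters' processing notes, all 8 are protein-coding genes on autosomes. The gene him-3 (WBGene00001862) spans IV:6977508-6978765, syp-1 (WBGene00006375) V:16404274-16407701, syp-2 (WBGene00006376) V:5536487-5537717 and him-8 (WBGene00001867) IV:10561905-10563974. The gene spo-11 (WBGene00004985) spans IV:11123133-11124862, mre-11 (WBGene00003405) V:10733931-10736671, rad-51 (WBGene00004297) IV:10281634-10284244 and him-14 (WBGene00001872) II:7065020-7069966. Of these, 3 share bases with another gene of the RefSeq annotation. The germline gene nos-2 lies wholly inside the him-14 span (1434 bp) and had 614 CPM of mRNA in wild type. F13A7.14 shares 991 bp with syp-1 and had 26.9 CPM of mRNA in wild type. The gene enpl-1 shares 23 bp with spo-11 and had 3124 CPM of mRNA in wild type. The counts hold a summary row for ambiguous reads, 0.229% to 0.368% of reads per library, which was excluded. Which reads in shared bases went there, and whether strand was used for mRNA, is not given in the sources used here. The values of these 3 genes carry that uncertainty.

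Gene counts summed to 14858199 to 39310540 per small RNA library and 21290140 to 29559542 per mRNA library. CPM, used throughout, is a gene's count normalised to the library size after TMM scaling, and library values are given in the order of replicate number. The mRNA counts of cup-4 itself were 117 and 85 in wild type and 20 to 37 in the mutant libraries, the direction its label gives. All 10 germline markers had reads in every library of both assays, at summed mRNA levels of 6002 and 9899 CPM in wild type and 5850 to 7811 CPM in cup-4. Intestine markers differed most between the mRNA groups: all 10 had reads in every library, all 10 had a log2 fold change above 0, and their sum was 3479 to 4067 CPM in wild type and 19216 to 112423 CPM in cup-4. Most of this sum was vit-2, vit-5 and vit-6, with means of 1455, 782 and 1223 CPM in wild type and 20114, 14342 and 19684 CPM in cup-4. The log2 fold changes of the other intestine markers ran from 0.64 (elt-2) to 2.35 (ges-1). Muscle marker sums were 546 to 835 and 932 to 4093 CPM, again with reads for 10 of 10 markers in every library. The summed mRNA ranges of wild type and cup-4 were 13996 to 22801 and 18317 to 24124 CPM for oocyte markers, 39.5 to 104 and 44.3 to 174 CPM for sperm, 414 to 787 and 823 to 1203 CPM for gonadal sheath, 336 to 1499 and 1045 to 1718 CPM for hypodermis, 72.1 to 88.0 and 63.3 to 80.4 CPM for neurons, and 5.46 to 7.12 and 3.01 to 8.29 CPM for coelomocytes. No marker passed the test in mRNA, and in small RNA 1 marker passed, a germline gene that fell. In gonad samples, fewer meiotic cells and less RNA per cell cannot be told apart.

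The first comparison asked whether antisense small RNA against the meiotic genes differs between the genotypes. Small RNA against him-3 in cup-4 was 0.701 times its wild-type level and that against syp-1 0.785 times, although neither passed the test. Both were lower without overlap between genotypes, as were 14.8% of all tested genes. The other 6 genes lay closer to their wild-type level. None of the 8 passed the threshold of 0.05 (edgeR's quasi-likelihood test, Benjamini-Hochberg adjustment over 13336 genes), against 1.12% of all genes tested (0.337% lower and 0.78% higher in cup-4). At an unadjusted p under 0.05 there were 3, all lower in cup-4, where 22.8% of all genes reached that level, 11.1% lower and 11.7% higher. DESeq2 called 2 of the 8, him-3 and syp-1, and 3.69% of the 31750 genes in its fit. Its fits, here and below, kept every gene with any count. Their shares thus cover many low-count genes that edgeR's filter removed. The share over genes counted as well as the 8 may differ and was not computed.

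The axis gene him-3 and the synaptonemal complex gene syp-1 differed most. Small RNA against him-3 measured 160.5, 145 and 121 CPM in the wild-type libraries, whereas the cup-4 libraries held 102, 92.8 and 104 CPM. Every cup-4 library lay below every wild-type library, and the log2 fold change was -0.51 (SE 0.11, 95% interval -0.78 to -0.25, edgeR adjusted p 0.0814). Within batches 1, 2 and 3 the log2 ratio of cup-4 to wild type was -0.66, -0.64 and -0.22. Small RNA against syp-1 measured 92.2, 89.9 and 93.5 CPM in wild type, compared with 66.3, 71.2 and 78.6 CPM in cup-4. These groups were also separate, and the wild-type values were close together, at 91.8 ± 1.82 CPM (SD, n = 3). The log2 fold change of syp-1 was -0.35 (SE 0.082, 95% interval -0.54 to -0.16, edgeR adjusted p 0.0897), with -0.47, -0.33 and -0.25 in batches 1, 2 and 3. Its partner syp-2 had wild-type values of 32.2, 33.8 and 34.4 CPM, close to the 32.9, 28.7 and 35.0 CPM of cup-4. The syp-2 groups overlapped, and the log2 fold change of -0.06 (SE 0.10) had a 95% interval from -0.29 to 0.18.

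The pairing and break genes overlapped between genotypes. The X-chromosome pairing gene him-8 had 68.5, 65.3 and 60.8 CPM of small RNA in wild type, next to 61.1, 62.6 and 65.6 CPM in cup-4. Its log2 fold change was -0.04 (SE 0.076, 95% interval -0.22 to 0.14). The break-making gene spo-11 was the least targeted of the 8, at 14.3, 17.4 and 17.003 CPM in wild type, compared with 16.1, 19.9 and 18.8 CPM in cup-4. It was the only one of the 8 with a log2 fold change above 0 (0.17, SE 0.14, 95% interval -0.15 to 0.49), and cup-4 was above wild type in each of the 3 batches, by 0.18, 0.19 and 0.15. Under total counts 3 of the 8 genes, him-3, syp-1 and rad-51, were below 0. Small RNA against the nuclease gene mre-11 measured 90.6, 91.5 and 82.0 CPM in wild type, next to 82.0, 84.5 and 91.2 CPM in cup-4, a log2 fold change of -0.04 (SE 0.079). The 2 groups covered nearly the same range.

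Among the repair and crossover genes, the recombinase gene rad-51 had 89.3, 78.1 and 81.8 CPM of small RNA in wild type, whereas the mutant libraries held 73.0, 72.7 and 74.0 CPM. All cup-4 values were lower, and they lay close together. The log2 fold change was -0.18 (SE 0.075, 95% interval -0.36 to -0.0046), with an edgeR adjusted p of 0.213. Small RNA against him-14 measured 78.5, 60.5 and 55.1 CPM in wild type, next to 60.3, 59.3 and 63.5 CPM in cup-4. Here the wild-type libraries spread around the cup-4 ones: the log2 fold change was -0.08 (SE 0.13), and 0.07 without wild-type replicate 1. Non-overlap toward lower values in cup-4 was thus seen for 3 of 8 genes (him-3, syp-1 and rad-51), where 14.8% of all tested genes showed it, 15.8% did not overlap toward higher values, and 30.6% did not overlap in either direction.

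**Figure D1:**
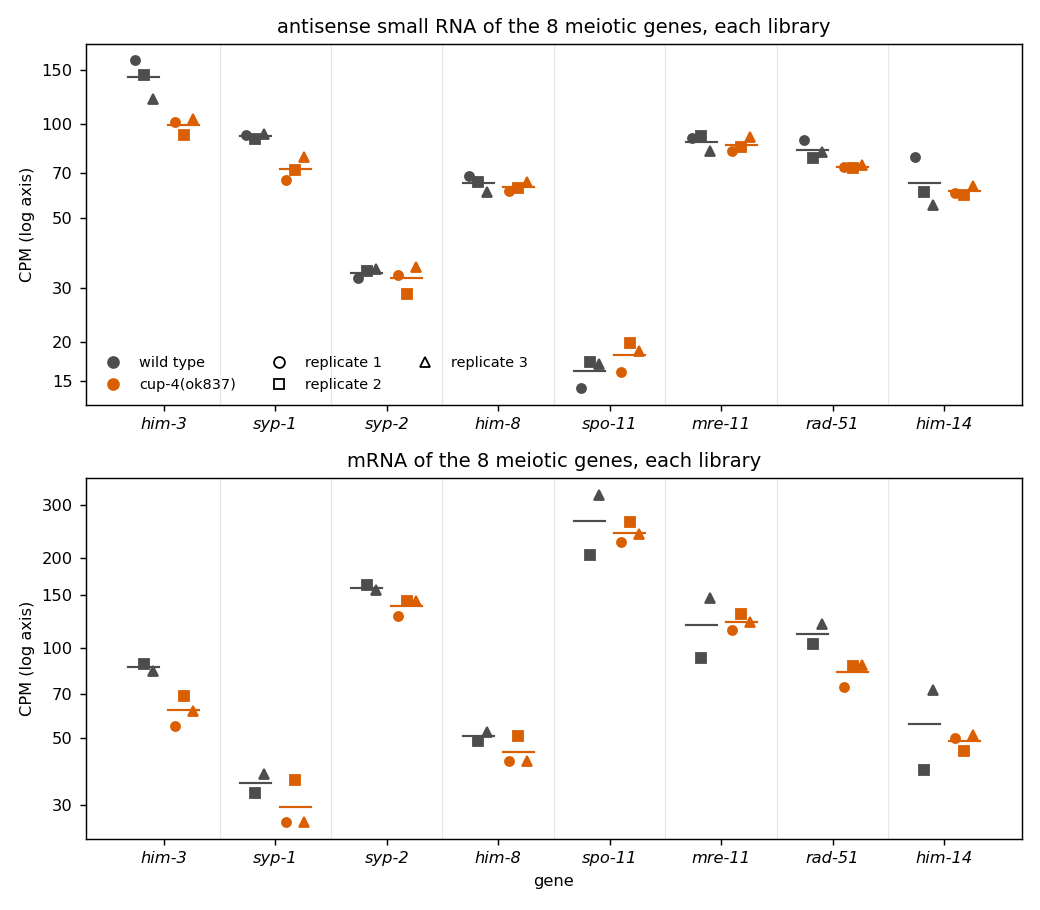
CPM of the 8 genes on a log axis, antisense small RNA above and mRNA below. Symbols are libraries (circle, square and triangle for replicates 1, 2 and 3), bars are group means, grey is wild type and orange cup-4. The orange small RNA points of him-3, syp-1 and rad-51 lie below all grey ones, and in mRNA the wild-type libraries of spo-11, mre-11 and him-14 lie far apart.

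The second comparison asked the same of mRNA. The levels of him-3, rad-51 and syp-2 in cup-4 were 0.718, 0.743 and 0.871 times those in wild type, although none passed the test. Each was lower without overlap, as were 17.8% of all tested genes. None of the 8 passed the threshold in edgeR, where 0% of the 12861 genes tested passed. At an unadjusted p under 0.05 there was 1 (him-3, lower), where 17.2% of all genes reached that level, 6.35% lower and 10.8% higher, and DESeq2 called 0 of the 8 and 4.66% of all genes in its fit. The median log2 fold change of the 8 genes was -0.19 and 7 were below 0, while the median of all tested genes was 0.16, with 40.6% below 0.

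The mRNA of him-3 measured 88.5 and 84.0 CPM in wild type, whereas the mutant libraries held 54.8, 69.3 and 61.7 CPM. The log2 fold change was -0.48 (SE 0.19, 95% interval -0.93 to -0.022, edgeR adjusted p 0.275), and the within-batch values were -0.35 in batch 2 and -0.45 in batch 3. The rad-51 transcript measured 103 and 120.4 CPM in wild type, compared with 73.8, 87.3 and 87.5 CPM in cup-4. Both wild-type libraries lay above all 3 cup-4 libraries, with a log2 fold change of -0.43 (SE 0.20, 95% interval -0.90 to 0.044, edgeR adjusted p 0.332) and -0.24 and -0.46 in batches 2 and 3. With him-3 and rad-51, 2 of 8 genes were lower without overlap in both assays, where 4.53% of the 10163 genes tested in both were.

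Of the synaptonemal complex pair, syp-2 mRNA measured 162 and 156 CPM in wild type, compared with 128, 144 and 144 CPM in cup-4, with a log2 difference of -0.20 (SE 0.20, adjusted p 0.666 in edgeR). The groups did not overlap, although the SE was about as large as the difference. Non-overlap toward lower values, seen in him-3, rad-51 and syp-2, was shared by 17.8% of all tested genes, while 20.1% did not overlap toward higher values and 37.9% in either direction. The mRNA of syp-1 measured 32.7 and 37.9 CPM in wild type, next to 26.2, 36.2 and 26.2 CPM in cup-4. These groups overlapped through cup-4 replicate 2, and the log2 fold change was -0.26 (SE 0.23). The pairing gene him-8 had 49.0 and 52.4 CPM in wild type, next to 41.8, 50.7 and 41.9 CPM in cup-4, a log2 fold change of -0.18 (SE 0.19), and it too overlapped through cup-4 replicate 2.

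For spo-11, mre-11 and him-14 the wild-type mRNA libraries bracketed the mutant ones. The spo-11 mRNA measured 205 and 325 CPM in wild type, next to 225, 263 and 239 CPM in cup-4. That of mre-11 measured 92.6 and 147 CPM in wild type, next to 114, 129 and 121.8 CPM in cup-4. The him-14 mRNA measured 39.1 and 72.1 CPM in wild type, next to 49.9, 45.2 and 51.4 CPM in cup-4. In each of these 3 genes all cup-4 libraries fell between the wild-type libraries, which differed by 0.67, 0.66 and 0.88 on the log2 scale. Such a gap was common: 43.1%, 43.1% and 33.1% of genes had a larger one, whereas him-3, syp-2 and him-8 differed by at most 0.096 between the same libraries. Log2 fold changes were -0.13 (SE 0.27) for spo-11, 0.03 (SE 0.25) for mre-11 and -0.19 (SE 0.28) for him-14. Their sign depended on the wild-type library used: without replicate 3 they were 0.18, 0.34 and 0.26, and without replicate 2 they were -0.42, -0.27 and -0.56.

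The intestine and muscle marker sums given above moved with genotype in the same mRNA libraries, and cup-4 replicate 1 held the highest of both. Without that library the median of the 8 genes was -0.25, all 8 were below 0, and the median of all tested genes was -0.027. Scaling to the summed counts of the 10 germline markers, an alternative chosen after seeing the data, gave a median of -0.020 for the 8 genes, with 4 below 0, and -0.32 for him-3. It moved the median of all tested genes up as well, to 0.34 from 0.16, so the median of the 8 genes lay about as far below it as before. The part of somatic RNA in these differences was otherwise not tested.

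**Figure D2:**
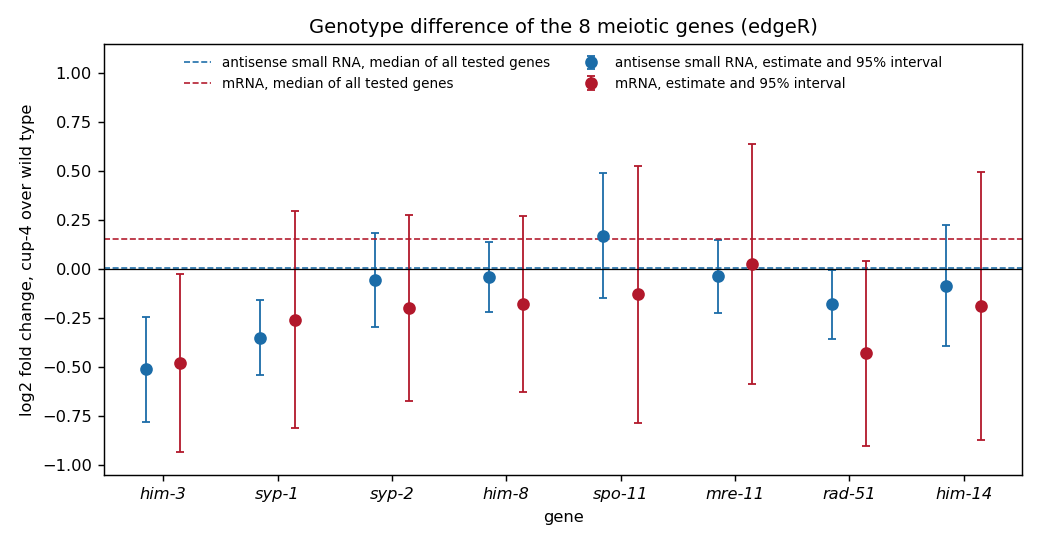
Log2 fold change of cup-4 over wild type for each gene, with 95% intervals from edgeR, in antisense small RNA (blue) and mRNA (red). Dashed lines mark the medians of all tested genes, 0.0065 and 0.16. The small RNA intervals of him-3, syp-1 and rad-51 and the mRNA interval of him-3 lie wholly below 0, and mRNA intervals are wider throughout.

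The ratio of antisense small RNA CPM to mRNA CPM, taken between libraries of the same genotype and batch, does not depend on gene length. It ran from 1.97 to 3.00 for syp-1 over the 5 library pairs, from 0.199 to 0.257 for syp-2 and from 0.0523 to 0.0847 for spo-11. The ratio of syp-1 was thus 9.87 to 13.2 times that of syp-2, the other central-region gene, and 26.04 to 47.1 times that of spo-11. The ratios of syp-1 and spo-11 carry the uncertainty of their shared bases given above. Among the 10163 genes tested in both assays, the mean percentile of this ratio was 70.3 for syp-1, 60.7 for him-3, 56.7 for him-8, 53.7 for him-14, 43.9 for rad-51, 40.8 for mre-11, 16.8 for syp-2 and 5.74 for spo-11. The order held in every pair of libraries, except that him-8 exceeded him-14 in 3 of 5 and rad-51 exceeded mre-11 in 4 of 5.

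Between genotypes the ratio overlapped for 7 of the 8 genes. For rad-51 the wild-type pairs gave 0.760 and 0.679, whereas the cup-4 pairs gave 0.989, 0.833 and 0.846. This was a log2 difference of 0.30 with every cup-4 value above the wild-type ones (exact two-sided permutation test, p = 0.1, the smallest p that 2 against 3 libraries allow). Over the 10163 genes the ratio was higher in cup-4 without overlap for 19.2% and lower without overlap for 15.6%, and the median log2 difference was -0.04. For the other 7 genes the exact permutation p ranged from 0.3 to 0.9. For him-3, which was lower in both assays, the wild-type ratios of 1.63 and 1.44 lay within the cup-4 ones of 1.85, 1.34 and 1.69.

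**Figure D3:**
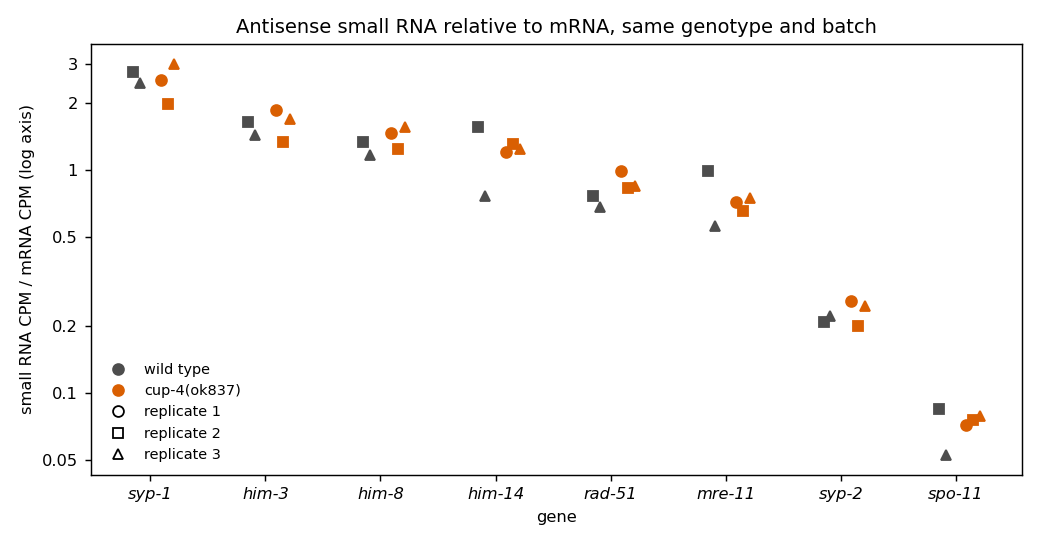
Ratio of antisense small RNA CPM to mRNA CPM (log axis) for each gene and each pair of libraries of the same genotype and batch. Symbols are replicates 1 (circle), 2 (square) and 3 (triangle), grey for wild type and orange for cup-4. The genes descend from syp-1, at 1.97 to 3.00, to spo-11, at 0.0523 to 0.0847, with both genotypes at each step.

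Levels can be set side by side between genes only per length, here per kb of the gene's span, introns included, since exon lengths were not used. In wild type, small RNA per kb was highest for him-3, at 113 ± 15.8 CPM per kb (SD, n = 3), above mre-11 at 32.1 ± 1.91 in every library. The genes mre-11, rad-51 (31.8 ± 2.18) and him-8 (31.3 ± 1.86) did not separate beyond their spread, nor did syp-2 (27.2 ± 0.937) and syp-1 (26.8 ± 0.531). Below them came him-14 at 13.1 ± 2.48 and spo-11 at 9.37 ± 0.979 CPM per kb, in this order in 6 of 6 libraries. In mRNA the order was another one: spo-11 (153 ± 49.0 CPM per kb, SD, n = 2) and syp-2 (129 ± 3.57) led without separating, followed by him-3 (68.6 ± 2.56), then mre-11 (43.6 ± 13.97) and rad-51 (42.8 ± 4.77), which overlapped. Lowest were him-8 (24.5 ± 1.147) and, overlapping each other, him-14 (11.2 ± 4.72) and syp-1 (10.3 ± 1.07). The spo-11 gene was thus last in small RNA per kb and, with syp-2, among the highest of the 8 in mRNA per kb. Its values carry the uncertainty, given above, of the bases shared with enpl-1.

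The other genes of the meiotic pathway were read from a list of 69 symbols, of which 68 matched an identifier, the 8 genes included. In antisense small RNA all 68 were tested and 63 had a log2 fold change below 0, with a list median of -0.13, while 49.3% of all 13336 genes were below 0 and their median was 0.0065. In edgeR 2 of the 68 passed, both lower in cup-4, where 0.337% of all genes passed in that direction, and 19 had an unadjusted p under 0.05, all lower, where 22.8% of all genes reached that level and 11.1% were lower. Scaling by total counts moved the median of all genes to 0.12 and left 40 of 68 list genes below 0, with a list median of -0.025.

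The 2 genes that fell were coh-4, a meiotic cohesin subunit, and chk-2, a kinase that starts pairing and break formation. Small RNA against coh-4 fell from 176 to 126 CPM, by 0.48 on the log2 scale (SE 0.078, edgeR adjusted p 0.0414), and that against chk-2 from 369 to 270.0 CPM, by 0.45 (SE 0.077, adjusted p 0.0482). With the replicate block their adjusted p was 0.0513 and 0.0578, and neither passed under total counts (0.176 and 0.185), in batches 2 and 3 alone (0.0575 for both), or when wild-type replicate 2 or 3 or any single mutant library was left out (0.0560 to 0.227). The next lowest p belonged to 2 further synaptonemal complex genes, syp-6 (-0.37, SE 0.073, adjusted p 0.0663) and syp-4 (-0.56, SE 0.11, adjusted p 0.0665). Since coh-4 has a close copy in coh-3 and the treatment of shared reads is not known, the coh-4 value is uncertain.

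By role, the small RNA medians were -0.30 for axis and cohesin genes (11 of 11 below 0), -0.22 for the synaptonemal complex (7 of 8), -0.29 for pairing (8 of 8), -0.09 for double-strand breaks (8 of 11), -0.07 for strand exchange and repair (10 of 10), -0.08 for crossover genes (14 of 14) and -0.15 for checkpoint genes (5 of 6). The him-3 value was the lowest of the 11 axis and cohesin genes, while him-8 and zim-1, a related zinc-finger gene named here after its value was seen, were both at -0.04 and above the other 6 pairing genes. Over all genes 49.3% were below 0. Under total counts 40 of the 68 list genes were below 0, compared with 63 here, so the counts by role depend on the scaling. Differences between roles were not tested. The small RNA sums of germline markers moved the same way, 1929 to 2175 CPM in wild type and 1689 to 1825 CPM in cup-4, with 9 of 10 markers below 0, and those of intestine markers the other way, 18.4 to 31.4 and 36.2 to 69.8 CPM. Their part in the list's values was not tested.

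In mRNA 34 of the 68 pathway genes were below 0, where 40.6% of all genes were, with a list median of 0.0072 and a median of 0.16 over all genes. The balance turned with 1 wild-type library: 54 of 68 were below 0 without replicate 2 (median -0.23) and 24 without replicate 3 (median 0.21). With germline-marker scaling 21 were below 0, with a list median of 0.22 and a median of 0.34 over all genes. None passed in edgeR, and 5 had an unadjusted p under 0.05, all lower, where 17.2% of all genes reached that level and 6.35% were lower. DESeq2 called 0 of the list and 4.66% of the 21071 genes in its fit. Besides him-3, the 5 genes of the edgeR count included the crossover genes zhp-1 (-0.71, SE 0.20, edgeR adjusted p 0.176) and zhp-2 (-0.66, SE 0.21, adjusted p 0.201). Both encode RING-finger proteins of the synaptonemal complex. The others were skr-2 (-0.75, SE 0.21, edgeR adjusted p 0.177), a Skp1-related gene, and the axis gene htp-1 (-0.53, SE 0.20, adjusted p 0.253). Reads of skr-2 and htp-1 may be shared with their close copies skr-1 and htp-2. The mRNA of coh-4 and chk-2, the 2 genes whose small RNA fell, had log2 fold changes of 0.12 (SE 0.22) and 0.10 (SE 0.57).

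**Figure D4:**
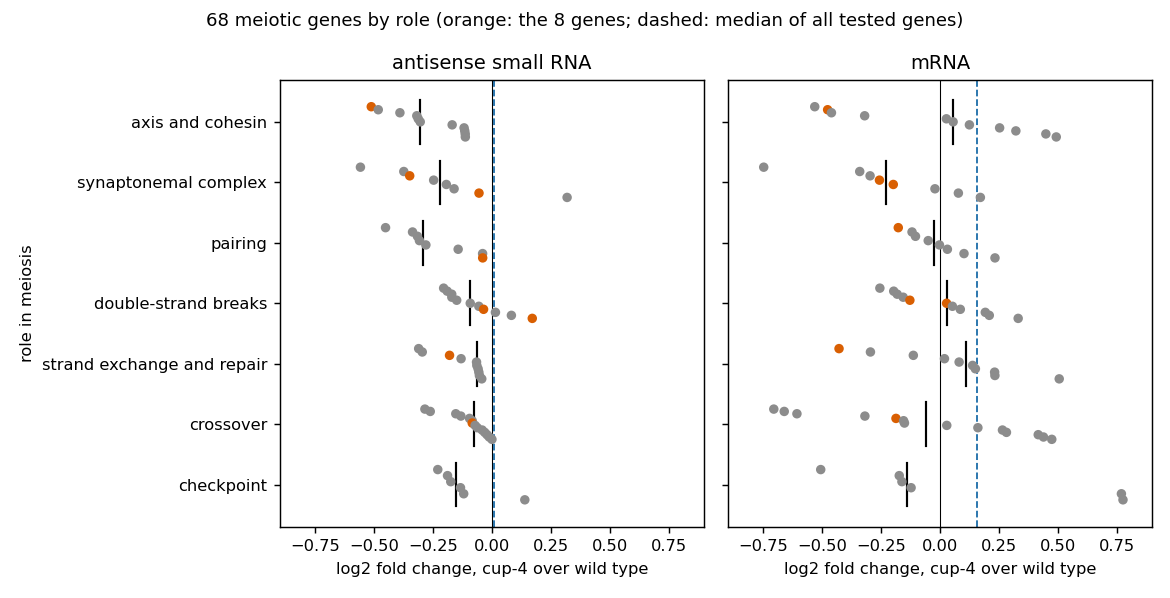
Log2 fold change of cup-4 over wild type for the 68 meiotic genes by role, antisense small RNA on the left and mRNA on the right. Points are genes, with the 8 genes in orange, black bars are medians by role and the dashed line is the median of all tested genes. In small RNA 63 points lie left of 0, and in mRNA 34 do.

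The genes whose profile over libraries was most like the mean profile of the 8 were found by the root mean square difference of centred log2 CPM. Over the 6 small RNA libraries they were spat-1, capg-1 and knl-2, with differences of 0.013, 0.016 and 0.018, compared with 0.050 to 0.21 for the 8 genes themselves. Over the 5 mRNA libraries they were ZC477.3, F57B10.8 and lsy-22, with 0.022, 0.025 and 0.027, compared with 0.090 to 0.22. As these genes were picked for the smallest difference among all tested genes, their lying closer than the 8 follows from the choice.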

How the data were processed

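Per the labels, RNA from gonads was used for small RNA and mRNA libraries. The authors deposited raw counts of reads per gene for both assays, small RNA in antisense orientation per the labels. The submitters' processing notes name cutadapt, HISAT2, HTSeq, DESeq2 and FastQC and the build ce11, without versions or roles. Summary rows named as in htseq-count were excluded (44.0% to 49.1% of small RNA reads, 13.4% to 23.8% of mRNA reads).

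Counts were tested in R 4.3.3 with edgeR 4.0.16 (glmQLFit with robust estimation, TMM, filterByExpr, genotype alone, each assay by itself), adjusted over all tested genes by Benjamini-Hochberg with a threshold of 0.05. SE is the absolute log2 fold change over the square root of F. CPM were computed from the deposited counts. The model was tested on simulated data with known log2 changes. Of changes of 0.5 it called 5.10% in small RNA and 0% in mRNA. Of changes of 1 it called 50.5% in small RNA and 3.03% in mRNA. A gene not past the threshold may therefore still differ. Alternatives were the replicate block, DESeq2 1.42.0, other scalings and filters, batches 2 and 3, and leaving out each library. The 8 genes, all lists (meiosis, germline, oocyte, sperm, intestine, muscle, sheath, hypodermis, neuron, coelomocyte) and the alternatives were chosen with earlier results of these data known. Named list genes are those past the threshold or, if fewer than 4 passed, the 4 of lowest p that are not among the 8, and the 3 genes per assay closest in profile. Symbols came from a table that matched 44017 of 46904 identifiers, gene spans from RefSeq for WBcel235. Of the sperm symbols 2 had 2 identifiers each and were left out.

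The pairing comes from the labels, which give each replicate number as a batch. Same-batch deviations from the genotype means correlated at 0.15, -0.12 and 0.09 in small RNA batches 1, 2 and 3 and at -0.04 and 0.63 in mRNA batches 2 and 3. With 2 wild-type mRNA libraries, their deviations are mirror images. The 2 mRNA correlations are therefore not independent and cannot show pairing by themselves. Libraries of a group all differed by more than counting noise (lowest chi-square to degrees of freedom ratio 17.8).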

Additional observations from a re-analysis of the deposited data

How the results depend on the processing

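The number of genes past the threshold in small RNA, 149, was 263 with the replicate block, 1173 in DESeq2, 1651 without a filter, 403 in batches 2 and 3 only, and 13 to 406 when 1 library was left out, each of the 6 moving it by over 1.5 times (406, 403 and 62 without wild-type replicates 1, 2 and 3, and 69, 13 and 45 without cup-4 replicates 1, 2 and 3). Under total counts 185 were higher and 34 lower, compared with 104 and 45, and the median of all genes moved from 0.0065 to 0.12. Of the 8 meiotic genes DESeq2 called 2 and the fit without a filter 2, him-3 and syp-1 in both. The pathway list's 2 calls of 68 genes became 13 in DESeq2 (3.69% of all genes in its fit), 14 without a filter (5.2% of 31750 genes), 0 with the replicate block, 0 under total counts, 0 in batches 2 and 3, and 0 to 2 when 1 library was left out. In mRNA the count of 0 became 199 with the replicate block, 981 in DESeq2 and 313 without a filter, with 0 of the 8 genes called in each. The replicate block changed no other call of the 8 genes or the list.

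Genes near 0 changed sign. In small RNA, total counts gave 0.057 for syp-2, 0.068 for him-8, 0.072 for mre-11 and 0.020 for him-14. A mean count of at least 50 gave 0.014 for him-8 and 0.018 for mre-11, and batches 2 and 3 only gave 0.019, 0.014 and 0.082 for him-8, mre-11 and him-14. When 1 library was left out, the range was -0.12 to 0.021 for syp-2 and -0.19 to 0.072 for him-14. In mRNA, mre-11 was -0.033 in DESeq2, -0.032 with RLE size factors, -0.032 under total counts, -0.015 without a filter and -0.012 in batches 2 and 3. Germline-marker scaling gave 0.0039 for him-8, 0.12 for spo-11 and 0.087 for him-14. Leaving out 1 library gave -0.27 to 0.34 for mre-11, -0.42 to 0.18 for spo-11 and -0.56 to 0.26 for him-14. The cause was not tested. The log2 fold changes of him-3 and rad-51 in both assays, of syp-1 in both assays and of syp-2 in mRNA stayed below 0 in all 14 alternatives of each. In mRNA, batches 2 and 3 only and leaving out cup-4 replicate 1 are the same fit, counted under both names. Where leaving out a wild-type mRNA library left 1, that library was assumed to vary like the others. With 2 wild-type mRNA libraries, the SE of the 8 genes in mRNA was 0.187 to 0.283, compared with 0.075 to 0.137 in small RNA. Under total counts the order of levels per kb was kept in both assays.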
